A study of Mus musculus with 8 samples.

Results

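MHC class I molecules display peptides from inside the cell to CD8 T cells and natural killer cells, and 10 genes that build, load and feed them were followed in miR-223 knockout liver. They are H2-K1 and H2-D1, the classical heavy chains of the C57BL/6J mouse, B2m, the light chain, Tap1 and Tap2, the peptide transporter, and Tapbp, the loading factor tapasin. Psmb8, Psmb9 and Psmb10 encode the catalytic subunits of the immunoproteasome, and Psme1 encodes a subunit of the PA28 activator. The members were all non-control probes of the authors' deposited table that carried one of these symbols, which gave 13 of 40646 probes. They covered 9 of the 10 genes, since 0 probes carried the symbol H2-D1.

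The samples were 4 livers labelled miR-223 KO and 4 livers labelled WT, all from male mice of C57BL/6J background on a high-fat diet for 3 months. Whole liver was used, so fewer cells of a type and less RNA per cell cannot be told apart. Each liver RNA was labelled with Cy5 and hybridised to its own Agilent array together with Cy3-labelled Ambion Mouse Assorted Total RNA, a pool of mixed mouse tissue that served as the common reference and was never swapped between dyes. How the knockout was made, in which cells it acts and the age of the mice are not given in the labels. Whether every liver came from its own mouse is not given either, so the tests below weigh differences against a spread between samples that may be technical.

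Peptides for MHC class I are cut mainly by the proteasome. In the immunoproteasome the subunits encoded by Psmb8, Psmb9 and Psmb10 replace the constitutive ones encoded by Psmb5, Psmb6 and Psmb7, and PA28 opens the barrel. TAP carries the peptides into the endoplasmic reticulum, where tapasin holds the empty heavy chain with its B2m partner beside the transporter. Interferon-gamma raises the whole set through factors that include IRF1 and the coactivator NLRC5. In resting liver these genes are active in immune and endothelial cells and at a lower level in hepatocytes. miR-223 itself is a microRNA of myeloid cells, above all neutrophils.

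The mature sequences of the deleted microRNA are shown because they identify what the knockout livers lack. In the RefSeq entries the seed, bases 2 to 8, stands in capitals.
mmu-miR-223-3p: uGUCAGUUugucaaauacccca
mmu-miR-223-5p: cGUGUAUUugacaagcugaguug
The table held 0 probes for the microRNA or its host transcript, so its loss was not checked here.

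The probe sequences come next, because probes of one gene gave different values below. The 2 H2-K1 probes share a run of 25 bases, here in capitals, within 60-base probes. A stretch of 30 bases around it is shown for each, bases 29 to 58 of A_51_P190499 and bases 26 to 55 of A_51_P198434, 5′ to 3′ as deposited.
A_51_P190499: tgTGACCTAGGGCTGATTTCTTGTTAAgct
A_51_P198434: ctTGACCTAGGGCTGATTTCTTGTTAAttt
The 2 Psmb8 probes share no run of 20 bases and are shown whole.
A_51_P345366: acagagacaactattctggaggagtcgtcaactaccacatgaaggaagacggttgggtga
A_51_P345367: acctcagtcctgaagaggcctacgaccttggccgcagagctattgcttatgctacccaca
Among 40554 probes with a sequence, no other probe shared a run of at least 20 bases with a member probe on either strand. Shorter or imperfect matches between probes were not searched for. Nor were matches of any length to the transcripts of other class I genes, so these probes may not report their gene alone.

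Class I genes and their processing machinery are known to share promoter elements, so RefSeq windows of 300 bases around gene starts (250 before and 50 after, build GRCm38.p6) were searched on both strands for 4 motifs. The letters GGGGATTCC, bound by NF-kappa B factors in class I promoters, were found upstream of H2-K1 and H2-D1 and in 0.25% of 32851 windows. AANNGAAA, the core bound by interferon regulatory factors, was found at H2-K1, H2-D1, B2m and Psme1, 4 of the 9 member genes with a window, and in 23.9% of all windows. TTCNNNGAA, the gamma-activated site, was found only at Psmb8 among the 9, and in 8.3% of all windows. CCAAT, the site of the NF-Y factor, was found at 6 of the 9 and in 37.4% of all windows. Stretches that end at a gene's start are shown for 3 promoters, with these motifs in capitals. The first 2 belong to the heavy and light chains of the same molecule, and the third is the 225-base interval between the starts of Tap1 and Psmb9, which are transcribed away from each other.
H2-K1, chr17:34000348-34000497, minus strand: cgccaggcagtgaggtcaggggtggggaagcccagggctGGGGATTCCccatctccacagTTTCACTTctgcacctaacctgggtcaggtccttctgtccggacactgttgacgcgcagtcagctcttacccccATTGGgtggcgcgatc
B2m, chr2:122147537-122147686, plus strand: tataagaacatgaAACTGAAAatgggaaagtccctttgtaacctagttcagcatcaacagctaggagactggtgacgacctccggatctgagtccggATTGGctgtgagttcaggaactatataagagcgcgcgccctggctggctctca
Tap1 and Psmb9, chr17:34187331-34187555, plus strand: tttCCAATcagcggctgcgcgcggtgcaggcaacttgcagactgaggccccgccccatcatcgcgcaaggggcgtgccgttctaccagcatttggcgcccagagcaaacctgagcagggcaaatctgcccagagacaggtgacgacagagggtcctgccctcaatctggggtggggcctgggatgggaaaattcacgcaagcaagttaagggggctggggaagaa
Each match is a run of letters and not a measured binding site. In the RefSeq order Psmb9, Tap1, Psmb8 and Tap2 lie next to each other on chromosome 17.

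All values are log2 ratios of liver Cy5 over reference Cy3, normalised within each array by loess. A value of 0 therefore means the ratio typical of probes of like brightness on that array, and 1 means a ratio 2-fold above it. Levels are not compared between probes, which differ in their brightness and in their abundance in the reference. Per array, 49.5% to 69.8% of spots exceeded background clearly in Cy5 and the median Cy5 intensity was 79.5 to 187; the number of arrays is one limit on the precision. Spots that the scanner software marked as outliers were left out. Of the 13 member probes, all well above background in both dyes on 8 of 8 arrays, 11 probes of 8 genes had at least 3 values left in each group and were tested with limma. The other Tapbp probe and the Psme1 probe were not.

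No class I or immunoproteasome gene passed the test of a difference between miR-223KO and WT liver. Of the 11 tested probes, 0 passed an adjusted p of 0.05 in limma, with Benjamini-Hochberg adjustment over all 23930 probes tested, and 0 had an unadjusted p under 0.05. In 6 of 24 alternative settings 1 member probe had an unadjusted limma p under 0.05, and in none more than 1. Of these 6 settings 1 was the Cy3 reference, which holds no liver RNA. Over all probes these settings gave between 553 such probes (Cy3 reference, 23930 tested) and 1813 (no filter on dim probes, 39437 tested). Among all probes tested in the main fit, 2 passed the adjusted test (0.00836%) and 1087 had an unadjusted limma p under 0.05 (4.54%). In none of the 11 did the 2 groups of arrays stand fully apart, against 728 of all probes tested (3.04%). Of the 11 probes 4 were higher in miR-223KO and 7 were lower, with a median log2 fold change of -0.086, while the median over all tested probes was -0.0030, with 49.4% higher. With median centring in place of loess 9 member probes were higher and 2 lower (median 0.16), beside 62.4% of all probes higher (median 0.071). In Cy5 alone 7 were higher and 4 lower (median 0.091), beside 54.0% of all probes higher (median 0.024). Adjusted p-values in limma lay between 0.985 and 1.000 for the members.

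A difference that misses the threshold leaves a range of sizes possible, and that range is given by the intervals. The log2 fold changes of the members ran between -0.35 (Tap1) and 0.39 (Psmb8), with standard errors of 0.19 to 0.26. Their 95% intervals together spanned -0.87 to 0.85, a range of 0.547-fold to 1.80-fold. All 11 intervals lay within 1 log2 unit of 0, so in this fit a 2-fold change in either direction lay outside each of them. The intervals cover the spread between samples and not differences in how a probe reports its gene. Nor do they cover the choice of processing. With median centring in place of loess H2-K1 probe A_51_P198434 differed by 0.67 (SE 0.38). With Agilent's processed signals H2-K1 probe A_51_P190499 differed by -0.34 (SE 0.35). The 2-fold bound is given for the main fit and not for these settings.

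**Figure D1:**
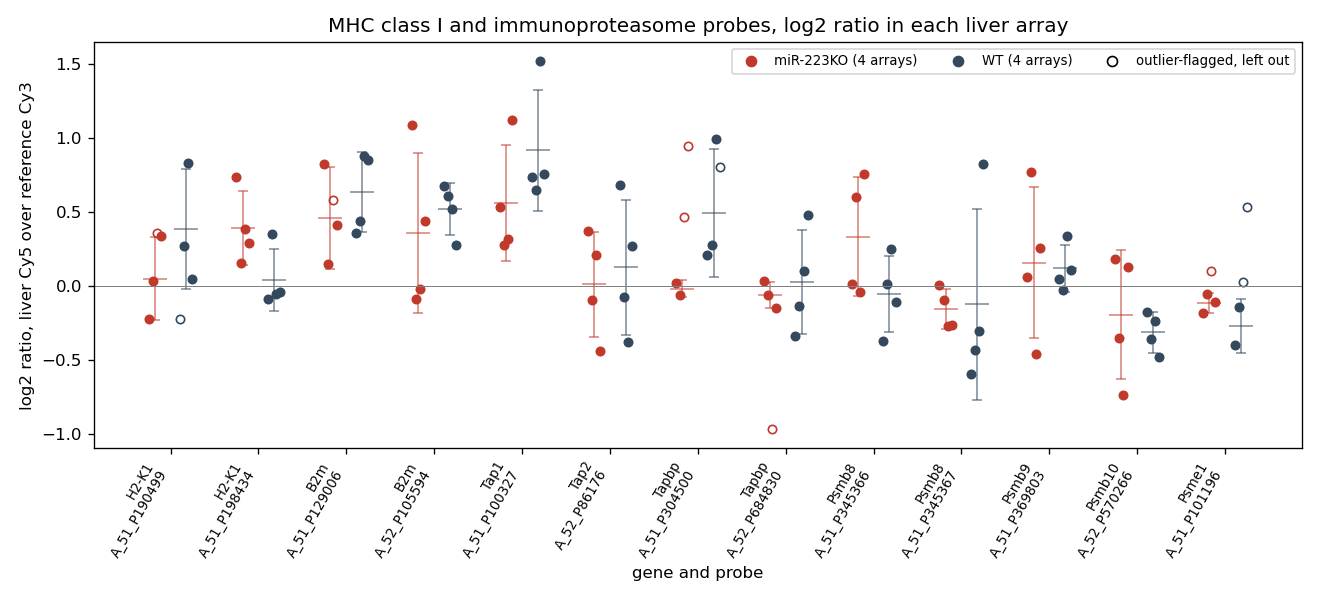
Log2 ratio of liver Cy5 over reference Cy3 (y axis) for each member probe (x axis) on each array, miR-223KO left in red and WT right in blue. Filled points entered the fit, open points were outlier-flagged and left out, and bars give the mean ± SD of the filled points. The groups overlap for all 11 tested probes.

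**Figure D2:**
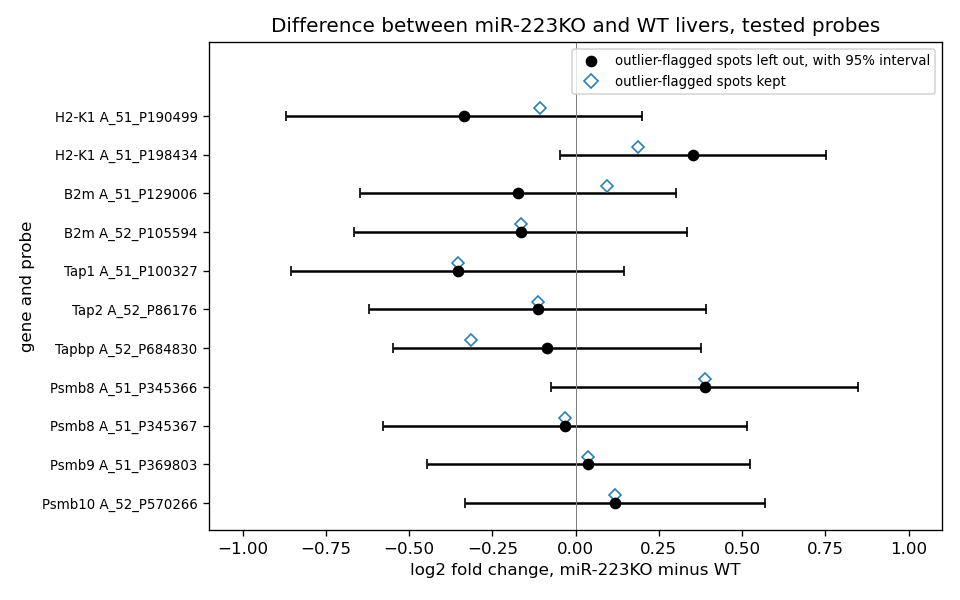
Log2 fold change, miR-223KO minus WT (x axis), of the 11 tested probes (y axis), as black points with 95% intervals from limma. Open diamonds give the same difference with outlier-flagged spots kept. Each interval crosses 0, and the diamond of B2m probe A_51_P129006 lies on the other side of 0 from its black point.

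The heavy chain H2-K1 was measured by 2 probes that pointed in opposite directions. Probe A_51_P198434 had log2 ratios of 0.74, 0.16, 0.38 and 0.29 in miR-223KO replicates 1 to 4, against -0.090, 0.35, -0.055 and -0.040 in WT replicates 1 to 4. All WT arrays but replicate 2 lay below all miR-223KO arrays, and WT replicate 2 lay among them. The difference was 0.35 on the log2 scale (SE 0.19, 95% interval -0.048 to 0.75), and limma gave an unadjusted p of 0.0805, the smallest among the members, and an adjusted p of 0.985. It was 0.32 within slide 1 and 0.39 within slide 2. With median centring in place of loess it was 0.67, at an unadjusted limma p of 0.0998. That p was 0.0488 with no filter on dim probes and 0.0380 without WT replicate 2, where the difference was 0.46. Without miR-223KO replicate 1 the difference was 0.24.

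The second H2-K1 probe, A_51_P190499, had -0.22, 0.032 and 0.34 in miR-223KO replicates 1, 2 and 4, against 0.27, 0.83 and 0.047 in WT replicates 2, 3 and 4. Its only spot was outlier-flagged on the remaining array of each group. The difference was -0.34 (SE 0.25, 95% interval -0.87 to 0.20, limma adjusted p 0.985), and the ranges of the groups overlapped. It was -0.11 without WT replicate 3 and -0.50 without WT replicate 4. With the channels rebuilt separately, Cy5 alone was higher in miR-223KO by 0.37 for both probes. Cy3, which carries the same reference RNA on every array, differed by 0.014 for A_51_P198434 and by 0.71 for A_51_P190499. How a difference parts between the dyes depends on the Aquantile step used to rebuild them, and the difference between the 2 probes was not tested. With median centring in place of loess A_51_P190499 differed by 0.16. With flagged spots kept, the differences were 0.19 and -0.11.

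H2-K1 probe A_51_P198434 and B2m probe A_51_P129006 are each printed at 10 spots per array, which shows how well a single spot measures these genes. Of 80 H2-K1 spots on the 8 arrays 53 were outlier-flagged, 51 of them as non-uniform in Cy5, and 27 were used. Of 80 B2m spots 66 were flagged, 55 as non-uniform in Cy5, and 14 were used. Among all non-control spots of an array only 2.0% to 5.7% were flagged, so these 2 probes are not typical of the arrays. Over all 10 spots of one array, the SD of the log2 ratio was 0.258 to 0.447 for H2-K1 and 0.305 to 0.525 for B2m. A single spot of these probes therefore strayed from the mean of its array by about as much as the largest difference between the groups among the members. Every other member probe has 1 spot per array.

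**Figure D3:**
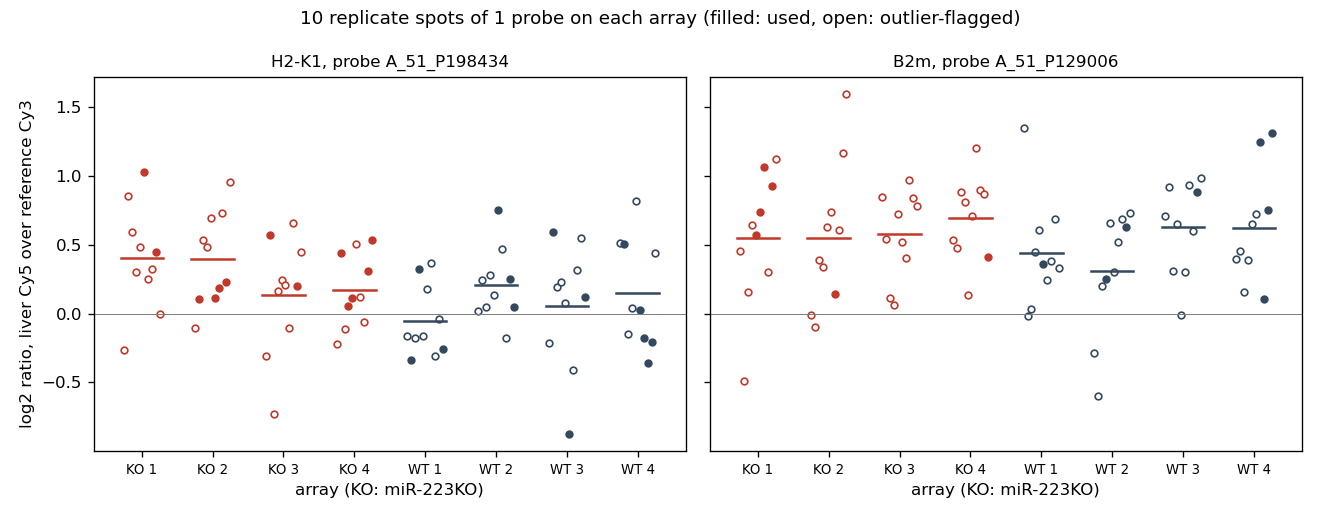
Log2 ratio (y axis) of the 10 spots of H2-K1 probe A_51_P198434 (left) and B2m probe A_51_P129006 (right) on each array (x axis), miR-223KO in red and WT in blue. Filled spots were used, open spots were outlier-flagged, and the line is the mean of all 10 spots. Spots of 1 array spread over most of the range that the arrays span.

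B2m, the light chain shared by classical class I and most class I-like molecules, passed the test by neither of its probes. Probe A_51_P129006 had 0.82, 0.15 and 0.41 in miR-223KO replicates 1, 2 and 4, against 0.36, 0.44, 0.88 and 0.85 in WT replicates 1 to 4. On miR-223KO replicate 3 all 10 spots were flagged. Of the 10 spots, 9 were flagged on miR-223KO replicates 2 and 4 and on WT replicates 1 and 3, so few spots carry these values. The difference was -0.17 (SE 0.22, 95% interval -0.65 to 0.30, limma adjusted p 0.986), -0.36 without miR-223KO replicate 1 and -0.016 without miR-223KO replicate 2. With flagged spots kept, it turned to 0.094, and the arrays lay closer together, at 0.55, 0.55, 0.58 and 0.69 in miR-223KO and 0.44, 0.31, 0.63 and 0.62 in WT.

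Probe A_52_P105594, which the table describes as an unclassifiable cDNA under the symbol B2m, had 1.09, -0.087, -0.018 and 0.44 in miR-223KO replicates 1 to 4, against 0.67, 0.61, 0.52 and 0.28 in WT replicates 1 to 4. The WT arrays all lay within the range of the miR-223KO arrays. The difference was -0.17 (SE 0.24, 95% interval -0.67 to 0.34, limma adjusted p 0.993). It was -0.41 without miR-223KO replicate 1, the highest array, and -0.018 without miR-223KO replicate 2, the lowest.

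For H2-D1, the other classical heavy chain, no value is given. The table held 2 probes under the symbol H2-L and 1 under H2-D4, symbols of related class I genes, and none of them was counted as H2-D1. The tested probe under the symbol H2-L, chosen after its value was seen, differed by 0.34 (SE 0.26, 95% interval -0.22 to 0.89). Which class I transcript gave its signal in these mice was not tested.

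Tap1, the first subunit of the peptide transporter, had the lowest fold change of the members. Its log2 ratios were 0.53, 0.27, 0.32 and 1.12 in miR-223KO replicates 1 to 4, against 0.74, 0.65, 1.52 and 0.76 in WT replicates 1 to 4. All miR-223KO arrays but replicate 4 lay below all WT arrays, and miR-223KO replicate 4 lay above 3 of them. The difference was -0.35 (SE 0.24, 95% interval -0.85 to 0.15, limma adjusted p 0.985), at -0.29 within slide 1 and -0.42 within slide 2. Without WT replicate 3, the highest array, it was -0.15, and without miR-223KO replicate 4 it was -0.54, at an unadjusted limma p of 0.0328.

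Tap2, the partner subunit, had 0.37, -0.096, 0.21 and -0.44 in miR-223KO replicates 1 to 4, against 0.68, -0.075, -0.38 and 0.27 in WT replicates 1 to 4. The ranges of the groups overlapped, and the WT range reached higher. The difference was -0.11 (SE 0.24, 95% interval -0.62 to 0.39), and it turned positive without WT replicate 1 (0.071) or without miR-223KO replicate 4 (0.035).

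Tapbp was tested by probe A_52_P684830, with 0.031, -0.062 and -0.15 in miR-223KO replicates 1, 2 and 4 and -0.34, -0.14, 0.10 and 0.48 in WT replicates 1 to 4. The miR-223KO values all lay inside the WT range, and the difference was -0.086 (SE 0.22, 95% interval -0.55 to 0.38). Without WT replicate 4 it was 0.066, and with the flagged spot of miR-223KO replicate 3 kept it was -0.31. The second Tapbp probe, A_51_P304500, kept only 2 unflagged values in miR-223KO, 0.021 and -0.058 in replicates 1 and 2, against 0.21, 0.28 and 0.99 in WT replicates 1 to 3. With flagged spots kept it could be tested, and the difference was -0.23 (95% interval -0.75 to 0.30, limma adjusted p 0.984).

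Psmb8, which encodes the chymotrypsin-like subunit LMP7, had the highest fold change of the members by one probe and a value near 0 by the other. Probe A_51_P345366 had 0.015, 0.60, -0.038 and 0.75 in miR-223KO replicates 1 to 4, against -0.37, 0.012, 0.25 and -0.11 in WT replicates 1 to 4. Replicates 2 and 4 of miR-223KO lay above all WT arrays, and the other two lay among them. The difference was 0.39 (SE 0.22, 95% interval -0.074 to 0.85, limma adjusted p 0.985), at 0.49 within slide 1 and 0.29 within slide 2. It was 0.55 with median centring in place of loess and 0.51 without miR-223KO replicate 3, at unadjusted limma p-values of 0.0426 and 0.0380, and 0.25 without miR-223KO replicate 4.

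Probe A_51_P345367 of the same gene had 0.0040, -0.094, -0.27 and -0.26 in miR-223KO replicates 1 to 4, against -0.59, -0.43, -0.30 and 0.83 in WT replicates 1 to 4. A single WT array, replicate 4, stood above all others, and the remaining 3 WT arrays lay below all miR-223KO arrays. The difference was -0.031 (SE 0.26, 95% interval -0.58 to 0.52), 0.47 within slide 1 and -0.53 within slide 2. It was 0.29 without WT replicate 4, 0.0070 without miR-223KO replicate 3 and 0.0046 without miR-223KO replicate 4.

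Psmb9, the subunit LMP2, had 0.062, 0.77, -0.46 and 0.26 in miR-223KO replicates 1 to 4, against 0.049, -0.024, 0.34 and 0.11 in WT replicates 1 to 4. The WT arrays lay close together and the miR-223KO arrays spread on both sides of them. The difference was 0.038 (SE 0.23, 95% interval -0.45 to 0.52), 0.40 within slide 1 and -0.33 within slide 2. Without miR-223KO replicate 2 it was -0.17, and without WT replicate 2 it was -0.0095.

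Psmb10, the subunit MECL-1, had 0.19, -0.35, -0.74 and 0.13 in miR-223KO replicates 1 to 4, against -0.17, -0.36, -0.23 and -0.48 in WT replicates 1 to 4. Here too the miR-223KO arrays spread around the WT arrays. The difference was 0.12 (SE 0.21, 95% interval -0.33 to 0.57), and without miR-223KO replicate 1 it was -0.0088. For Psme1 the values left were -0.19, -0.051 and -0.11 in miR-223KO replicates 1, 2 and 4, against -0.40 and -0.14 in WT replicates 1 and 2. With flagged spots kept, Psme1 differed by -0.064 (95% interval -0.50 to 0.37, limma adjusted p 0.998).

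The authors' deposited table gave the same picture in size. Its log2 fold changes of the 13 member probes ran between -0.207 and 0.378, and 4 of the 13 were above 0.

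The measured values of the members did not move together over the arrays, and the part of spot noise in this was not tested. With each gene taken by its brightest tested probe, the mean log2 ratio of the 8 genes was 0.35, 0.18, -0.054 and 0.30 in miR-223KO replicates 1 to 4, against 0.11, 0.11, 0.30 and 0.23 in WT replicates 1 to 4. The WT range lay inside the miR-223KO range. Pearson's r of each gene with the mean of the other 7, over 7 or 8 arrays that share one reference RNA, lay between -0.60 (Tap2) and 0.60 (Psmb10). Of 21495 probes of other genes with a value on all arrays, those most like the members' mean were Dock2 (r = 0.974), which activates Rac in leukocytes, an unnamed probe, A_52_P289692 (0.972), Ube2r2 (0.970), a ubiquitin-conjugating enzyme, Med21 (0.969), a Mediator subunit, and Zbtb21 (0.954), a zinc finger protein. Given 8 arrays and that many candidates, these r values are a description only.

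The rest of the pathway is given from lists of related genes, each gene by its brightest tested probe. The counts use the same limma fit, in which 0 genes of any list passed the adjusted test. Of 14 other class I and class I-like chains, counted by probe symbol with H2-L among them, 8 were higher and 6 lower. Their median log2 fold change was 0.13. H2-M3, which presents formylated bacterial peptides, differed by 0.57 (SE 0.20), and its second probe by 0.278. H2-T24, a class I-like chain, differed by -0.47 (SE 0.20), and its second probe by -0.422. These 2 of the 14 had an unadjusted limma p under 0.05, beside 4.54% of all tested probes.

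Genes of peptide trimming and loading numbered 13, of which 4 were higher and 9 lower, at a median of -0.031. Canx, the chaperone calnexin that holds newly made heavy chains, differed by -0.75 (SE 0.34). Canx was the only one of the 13 with an unadjusted limma p under 0.05, beside 4.54% of all tested probes. Its second probe differed by -0.29. Npepps, a cytosolic aminopeptidase, differed by -0.43 (SE 0.22), and by 0.0609 at its second probe.

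The proteasome outside the immunosubunits gave no unadjusted p under 0.05. Of 11 other genes of the 20S core 6 were higher and 5 lower (median 0.020), and of 27 regulators and assembly factors 12 were higher and 15 lower (median -0.053). Psmb6, the constitutive counterpart of Psmb9, differed by 0.28 (SE 0.37), while Psmb5 and Psmb7 were not tested. Psmb2, another beta subunit, differed by 0.39 (SE 0.20), and Psmb11, the thymus-specific beta subunit, by -0.33 (SE 0.18). Among the regulators, Psmc1, an ATPase of the 19S cap, differed by 0.56 (SE 0.32), Psmd7, a lid subunit, by 0.33 (SE 0.20), and Psme2, the partner of Psme1 in PA28, by 0.10 (SE 0.22).

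The factors that control class I genes gave no unadjusted p under 0.05 either. Of 17 transcription factors 10 were higher and 7 lower (median 0.094). Nlrc5, the class I coactivator, differed by -0.086 (SE 0.19), with a 95% interval of -0.48 to 0.31. Irf1 differed by 0.33 (SE 0.38), and by -0.233 at its second probe, and Nfyc, an NF-Y subunit, by 0.30 (SE 0.22). Interferon ligands, receptors and kinases numbered 9, with 5 higher and 4 lower (median 0.0076). The receptor chain Ifnar2 differed by -0.36 (SE 0.20), and by 0.109 at its second probe. The kinase Jak1 differed by 0.35 (SE 0.20), with both of its other probes below 0. Receptors of class I on immune cells and their relatives, listed without regard to what each one binds, numbered 7, with 4 higher and 3 lower (median 0.0075). Pirb differed by 0.33 (SE 0.20) and Klra8 by -0.22 (SE 0.19).

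Of 19 other genes induced by interferon-gamma 14 were higher and 5 lower, with a median of 0.17, beside 49.4% higher and a median of -0.0030 among all tested probes. Their mean log2 ratio was -0.18 to 0.24 in miR-223KO and -0.19 to 0.013 in WT, so the groups overlapped. Of the 19, 3 had an unadjusted limma p under 0.05, beside 4.54% of all tested probes. Cxcl10, a chemokine for T cells, ran between -0.17 and 0.30 in miR-223KO, against -0.70 to -0.41 in WT, and differed by 0.65 (SE 0.18, limma adjusted p 0.985). Gbp6, a guanylate-binding protein, differed by 0.51 (SE 0.21).

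MHC class II, which presents extracellular peptides to CD4 T cells, had 7 of 8 genes higher and 1 lower, with a median of 0.44. Of the 8, 4 had an unadjusted limma p under 0.05, beside 4.54% of all tested probes. H2-Ab1 ran between -0.075 and 0.39 in miR-223KO, against -1.20 to -0.54 in WT, and differed by 0.96 (SE 0.19, limma adjusted p 0.461). H2-Aa differed by 1.07 (SE 0.29, limma adjusted p 0.985). The mean over the 8 class II genes was -0.028 to 0.57 in miR-223KO and -0.33 to -0.21 in WT, while the mean over the 8 class I and immunoproteasome genes was -0.054 to 0.35 in miR-223KO and 0.11 to 0.30 in WT. The difference between the 2 lists was not tested.

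**Figure D4:**
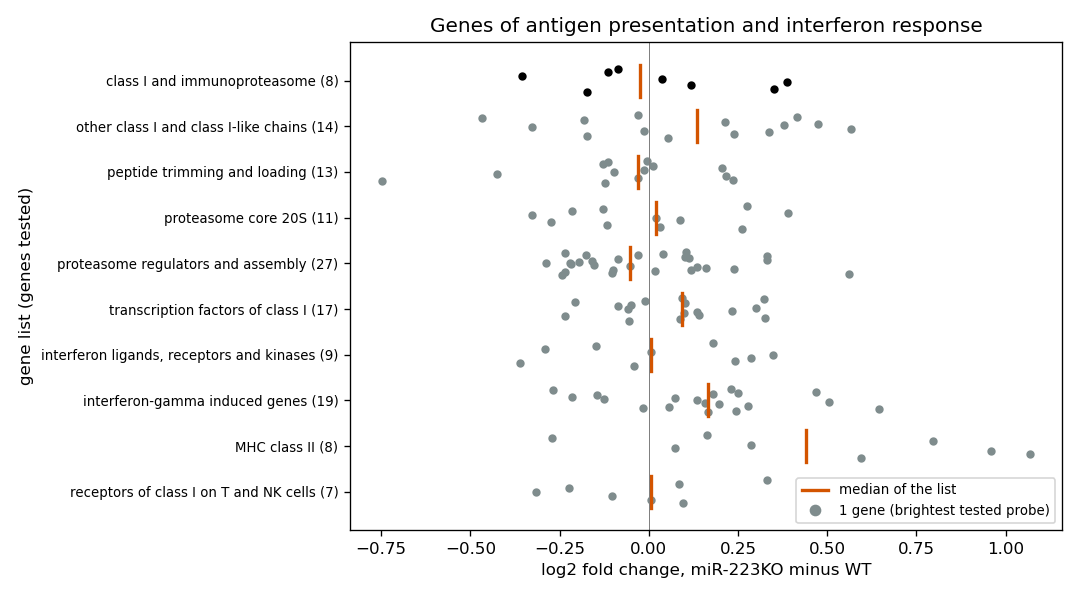
Log2 fold change, miR-223KO minus WT (x axis), of each tested gene in 10 lists of antigen presentation and interferon response (y axis, number of genes in brackets). Points are genes, the members in black, and orange bars are the list medians. The median is -0.024 for the 8 member genes and 0.44 for the 8 MHC class II genes.

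Markers of the cells in these livers are given because whole liver was measured. Hepatocyte markers were present, and the 6 tested of 8 on the array were all lower. Their mean log2 ratio was 0.386 to 0.697 in miR-223KO and 0.702 to 1.55 in WT, so the groups nearly met but did not overlap. Of 9 Kupffer cell markers 7 were higher (-0.15 to 0.34 in miR-223KO, -0.40 to 0.59 in WT), and of 9 endothelial markers 7 were higher (-0.065 to 0.089 in miR-223KO, -0.24 to -0.030 in WT). Of 8 T and NK cell markers 3 were higher (-0.11 to 0.29 in miR-223KO, 0.12 to 0.28 in WT), and of the 3 dendritic cell markers tested 0 were higher (-0.20 to 0.24 in miR-223KO, 0.032 to 0.38 in WT). Neutrophil markers, of the cells in which miR-223 is most abundant, were higher for 2 of 7 (-0.18 to 0.083 in miR-223KO, -0.19 to -0.0086 in WT). Of 8 markers of monocytes and lipid-associated macrophages 5 were higher (-0.00073 to 0.35 in miR-223KO, -0.26 to 0.18 in WT), and of 5 B and plasma cell markers 3 were higher (-0.18 to 0.13 in miR-223KO, -0.18 to 0.18 in WT). Of 8 stellate cell markers 4 were higher (0.0015 to 0.21 in miR-223KO, -0.34 to 0.19 in WT), and of 6 cholangiocyte markers 1 was higher (-0.44 to -0.040 in miR-223KO, -0.22 to 0.21 in WT). No marker passed the adjusted test, and the part of cell composition in the values above was not tested.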

How the data were processed

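RNA of 4 miR-223KO and 4 WT livers was measured on 8 Agilent 2-colour arrays on 2 slides, each slide with 2 arrays of each group. Per the file headers, the deposited scanner files came from Agilent Feature Extraction 12.0.3.1 and hold median spot and local background intensity for both dyes, and a log10 ratio of processed red over green that served to check the authors' table. That deposited table holds log2 ratios of processed signals, and its fold change is miR-223KO minus WT. Background was corrected with normexp (offset 50) and ratios normalised by weighted loess in limma 3.58.1 (R 4.3.3). Spots of a probe were averaged, without controls and outlier-flagged spots. Tested probes had Cy5 clearly over background on 4 or more arrays and 3 or more values per group. Groups were compared by lmFit with eBayes (two-sided) and p-values adjusted by Benjamini-Hochberg over 23930 probes, with a threshold of 0.05. Differences in Cy5 or Cy3 alone were rebuilt after loess and Aquantile, which sets how a change parts between the dyes. The fit was tested on simulated data. Named genes are all members and, per pathway list, up to 4 genes that passed, or failing that the 2 lowest in p, with Psmb5, Psmb6, Psmb7, Psme2, Nlrc5 and Irf1, and the 5 probes most like the members. One gene that the rule takes is not reported here. The members and lists were chosen with earlier results of these data known.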

Additional observations from a re-analysis of the deposited data

Results flagged for a closer look

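In 2 of 18 groups of 4 arrays that were examined, a single array stood far from the other 3 by Dixon's test, where chance marks about 1 group in 20. For H2-K1 probe A_51_P198434, WT replicate 2 had a log2 ratio of 0.35, against -0.090 to -0.040 on the other WT arrays. Without it the difference between miR-223KO and WT was 0.46. With outlier-flagged spots kept, the WT arrays were -0.057, 0.21, 0.058 and 0.15, and that array was still the highest. For Tap1 probe A_51_P100327, WT replicate 3 had 1.52, against 0.65 to 0.76 on the other WT arrays, and without it the difference was -0.15.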

How the results depend on the processing

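Under 24 alternative settings, 0 member probes passed the test in any. In 6 of them 1 member probe had an unadjusted limma p under 0.05, 1 of these in the Cy3 reference. Aquantile, either change of the filter on dim probes and the choice of the brightest probe cannot move a member's own fold change, and the Cy3 reference holds no liver RNA. The cause of the turns below was not tested. Median centring in place of loess, which moved the median of all tested probes to 0.071, gave 0.16 for H2-K1 A_51_P190499, 0.22 for B2m A_51_P129006, 0.093 for Tap2, 0.16 for Tapbp A_52_P684830 and 0.13 for Psmb8 A_51_P345367. Cy5 alone gave 0.37 for H2-K1 A_51_P190499, 0.075 for B2m A_51_P129006 and 0.091 for Psmb8 A_51_P345367. The Cy3 reference alone gave 0.71 and 0.25 for those H2-K1 and B2m probes, 0.047 for Tap1, 0.022 for Tap2, 0.072 for Tapbp and 0.12 for Psmb8 A_51_P345367. B2m A_51_P129006 was 0.094 with outlier-flagged spots kept and 0.084 within slide 1. Within slide 1 Tapbp was 0.22 and Psmb8 A_51_P345367 was 0.47, and within slide 2 Psmb9 was -0.33. With each array left out in turn, values ran between -0.28 and 0.071 for Tap2, -0.21 and 0.066 for Tapbp, -0.19 and 0.29 for Psmb8 A_51_P345367, -0.17 and 0.24 for Psmb9, -0.0088 and 0.30 for Psmb10, -0.50 and -0.11 for H2-K1 A_51_P190499, -0.36 and -0.016 for B2m A_51_P129006, and -0.41 and -0.018 for B2m A_52_P105594.

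Over all probes, 2 passed the main test. The count was 6 with a normexp offset of 16, and 4 with Cy5 above background required on all arrays. It was 1 with Agilent's processed signals, with median centring, with Cy5 alone, with flagged spots kept and with the authors' deposited table. It was 0 with Cy3 alone and within either slide. Leaving out single arrays gave 2 to 4, with 4 without miR-223KO replicate 1. The labels number the replicates 1 to 4 in both groups without saying whether equal numbers mark a pair. The deviations of same-numbered arrays had r of 0.0012, 0.057, 0.012 and -0.018 over probes. Values this low cannot exclude a pairing, and the main fit treated the samples as unpaired. With the replicate block, H2-K1 A_51_P190499 was 0.025 and 0 member probes passed.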
